A study of Mus musculus with 13 samples.

Results

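The miR-15/16 seed family was examined through the 3 of its microRNAs (miRNAs) found by name on a panel of 68 miRNA probes, miR-15a-5p, miR-15b-5p and miR-16-5p. No other miRNA of the family that was looked for by name, such as miR-195a-5p or miR-497a-5p, was on the panel. RNA came from plasma exosomes, small membrane vesicles shed into blood by many cell types, of male wild-type (WT) C57BL/6J mice sampled 24 hours after surgery. The 5 sham mice had a control operation and the 8 others had cecal ligation and puncture (CLP), in which the cecum is tied and pierced so that gut bacteria cause a polymicrobial sepsis. Each mouse gave 1 sample, and no age, drug or transgene is given in the labels used here. The values are fluorescence intensities, and the number of mice limits their precision.

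The family is defined by its seed, the bases from position 2 to position 8 that pair with target messenger RNAs, and it is known for repressing the anti-apoptotic gene Bcl2 and cyclins of the G1 phase of the cell cycle. Its genes lie in pairs. In the mouse, Mir15a and Mir16-1 sit within the long noncoding RNA gene Dleu2 on chromosome 14, and Mir15b and Mir16-2 within the gene Smc4, which encodes a condensin subunit, on chromosome 3. Each gene pair makes its own miR-15, but both make the same mature miR-16-5p, a miRNA abundant in red blood cells and often used as a reference in plasma assays.

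The mature sequences are shown because the members share a seed and differ only further along. They are the mouse entries of RefSeq on GRCm38.p6, written 5′ to 3′, with the seed in capitals. All 3 members had an entry.
miR-15a-5p: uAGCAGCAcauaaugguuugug
miR-15b-5p: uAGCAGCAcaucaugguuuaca
miR-16-5p: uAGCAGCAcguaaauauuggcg
miR-15a-5p lies at chr14:61632075-61632096 on the minus strand and miR-15b-5p at chr3:69009775-69009796 on the plus strand. Counted from 1 at the 5′ end, miR-15a-5p and miR-15b-5p are identical at 18 of 22 bases, and going from miR-15a-5p to miR-15b-5p the differences are A12C, G20A, U21C and G22A. miR-16-5p is identical to miR-15a-5p at 16 of 22 bases and to miR-15b-5p at 14 of 22, and the first difference from either is at position 10 (A10G).

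The next sequences show why 1 probe for miR-16-5p reads both gene pairs. They are the RefSeq hairpin precursors, with the mature 5p arm in capitals.
Mir15b: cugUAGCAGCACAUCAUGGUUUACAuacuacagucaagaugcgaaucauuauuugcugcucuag
Mir16-2: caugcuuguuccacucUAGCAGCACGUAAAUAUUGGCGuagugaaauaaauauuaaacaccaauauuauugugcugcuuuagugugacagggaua
Mir16-1: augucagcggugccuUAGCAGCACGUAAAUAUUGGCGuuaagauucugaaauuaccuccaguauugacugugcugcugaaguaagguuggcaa
Mir15b spans chr3:69009772-69009835 and Mir16-2 spans chr3:69009902-69009996, 66 bases further on. Mir16-1 spans chr14:61631880-61631972, and Mir15a lies 54 bases further on by coordinate. Both are on the minus strand, so Mir15a comes before Mir16-1 in the direction of transcription. The capitals are the same 22 bases in Mir16-2 (chr3:69009918-69009939) and Mir16-1 (chr14:61631936-61631957, minus strand), so the signal of miR-16-5p is the sum of both loci, whereas miR-15a-5p and miR-15b-5p each report 1 locus. The probes carry human miRNA names and their own sequences were not used here, so how far the probes read each other's target or miR-195a-5p, which matches miR-16-5p at 19 of 21 bases, was not tested.

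Summed over the panel, raw signal lay between 10598 and 45121 units in the sham group and between 33043 and 74685 units in the CLP group, and the geometric mean signal was 1.94 log2 units higher in CLP. Markers of red cells (miR-451a and miR-486-5p), myeloid cells (miR-223-3p, miR-142-3p) and lymphocytes (miR-150-5p, miR-342-3p) were above 0 in all 13 mice. So were those of platelets and endothelium (miR-126-3p, and again miR-223-3p). Of the hepatocyte markers, miR-192-5p was above 0 in all 13 mice and miR-122-5p in 12. Such detection was common, since 60 of the 68 probes were above 0 in every mouse. Fewer vesicles and less miRNA per vesicle cannot be told apart in such samples.

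The first comparison asked whether the signal of the members, as recorded, differed after CLP. miR-15a-5p and miR-15b-5p rose, and miR-16-5p did not pass in limma's moderated test. miR-15a-5p, the product of the Dleu2 locus, measured 128.19, 454.49, 280.56, 197.13 and 635.86 raw units in sham mice 1 to 5. The values of CLP mice 1 to 8 were 1171.42, 1677.35, 1470.5, 1435.7, 1481.64, 1136.86, 891.06 and 665.03 units. Every CLP mouse lay above every sham mouse, with CLP mouse 8 the lowest of its group and sham mouse 5 the highest of the other. miR-15b-5p, the product of the Smc4 locus, measured 117.61, 264.42, 166.84, 92.35 and 425.96 units in sham mice 1 to 5. Those of CLP mice 1 to 8 were 869.36, 1282.29, 1236.86, 1258.12, 986.62, 773.95, 565 and 559.84 units. Again no CLP mouse overlapped with a sham mouse, a pattern shown by 15.2% of the 66 miRNAs tested without scaling.

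miR-16-5p, the shared product of both loci, measured 2202.42, 3566.66, 4045.04, 2521.7 and 5656.75 units in sham mice 1 to 5. In CLP mice 1 to 8 it measured 5894.56, 6001.3, 5672.86, 6286.05, 5481.88, 5398.41, 5207.8 and 4374.98 units. Here the groups overlapped, because sham mouse 5 lay above 4 of the 8 CLP mice. The CLP mice were also close together, with the highest 1.44-fold above the lowest, against 2.52-fold for miR-15a-5p and 2.29-fold for miR-15b-5p.

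In limma's moderated test without scaling (two-sided, Benjamini-Hochberg adjustment over 66 miRNAs, called at an adjusted p under 0.05), miR-15b-5p rose 4.91-fold (log2 2.29, SE 0.44, adjusted p = 0.000143). miR-15a-5p rose 4.12-fold (log2 2.04, SE 0.44, limma adjusted p = 0.00033). For both, 8 of 8 CLP mice exceeded the mean of the sham group. For miR-16-5p the difference was 0.70 (SE 0.38, 95% interval -0.091 to 1.49, limma adjusted p = 0.0844), although here too 8 of 8 CLP mice exceeded the mean of the sham group. Of all 66 miRNAs 90.9% rose and the median difference was 1.87, so a rise by itself does not set miR-15a-5p and miR-15b-5p apart, and miR-16-5p was among the few that were not called. The call of miR-16-5p depended on the test and on single mice. In limma it passed without sham mouse 5 (0.88, limma adjusted p = 0.0248) and without CLP mouse 8 (0.74, limma adjusted p = 0.0461). It also passed in an exact permutation test over the same miRNAs (adjusted p = 0.00879). Over all its alternatives the adjusted p ran from 0.00879 to 0.740. With the level of the mouse, the geometric mean signal of the other miRNAs, as a covariate, none of the members passed (0.52 for miR-15a-5p, 0.81 for miR-15b-5p and -0.13 for miR-16-5p; limma adjusted p = 0.342, 0.125 and 0.740).

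The second comparison asked how the members stood relative to the rest of the panel, once each mouse had been divided by its geometric mean signal. miR-16-5p fell, and the other members did not pass. On the scaled scale miR-16-5p was at 13208, 10051, 8821, 13891 and 6454 units in sham mice 1 to 5. After CLP, mice 1 to 8 were at 5481, 3496, 3325, 3558, 3249, 3812, 5020 and 7859 units. All CLP mice other than mouse 8 lay below every sham mouse, and CLP mouse 8 lay above sham mouse 5 alone. The fall was 2.36-fold (log2 -1.24, SE 0.25, limma adjusted p = 0.00368). Of the 65 miRNAs tested 20% fell and 10.8% rose, and the median difference was 0.0988.

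miR-15b-5p was 0.36 higher on the scaled log2 scale (SE 0.21, 95% interval -0.090 to 0.80, limma adjusted p = 0.197). Its scaled values lay between 364 and 745 units in the sham group and between 545 and 1006 units in the CLP group. On the log2 scale 8 of 8 CLP mice exceeded the sham mean of 9.085, CLP mouse 7 only narrowly (9.089). In units, CLP mice 6 and 7 (547 and 545) lay below the sham mean of 562. It was called higher with the authors' own scaled values (0.57, limma adjusted p = 0.0292) and with scaling to the 75th percentile (0.57, limma adjusted p = 0.0313), within a range of 0.0292 to 0.692 over its alternatives. miR-15a-5p differed by 0.10 (SE 0.19, 95% interval -0.31 to 0.52, limma adjusted p = 0.721), 5 of 8 CLP mice exceeding the sham mean on the log2 scale. Its difference was -0.020 without sham mouse 3. Quantile normalization moved miR-16-5p to 0.14 (limma adjusted p = 0.357; 0.000719 to 0.357 over its alternatives). miR-16-5p was the brightest probe of the panel in 11 of 13 mice and the next brightest in the other 2, and quantile normalization gives probes of 1 rank the same value in every mouse.

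**Figure D1:**
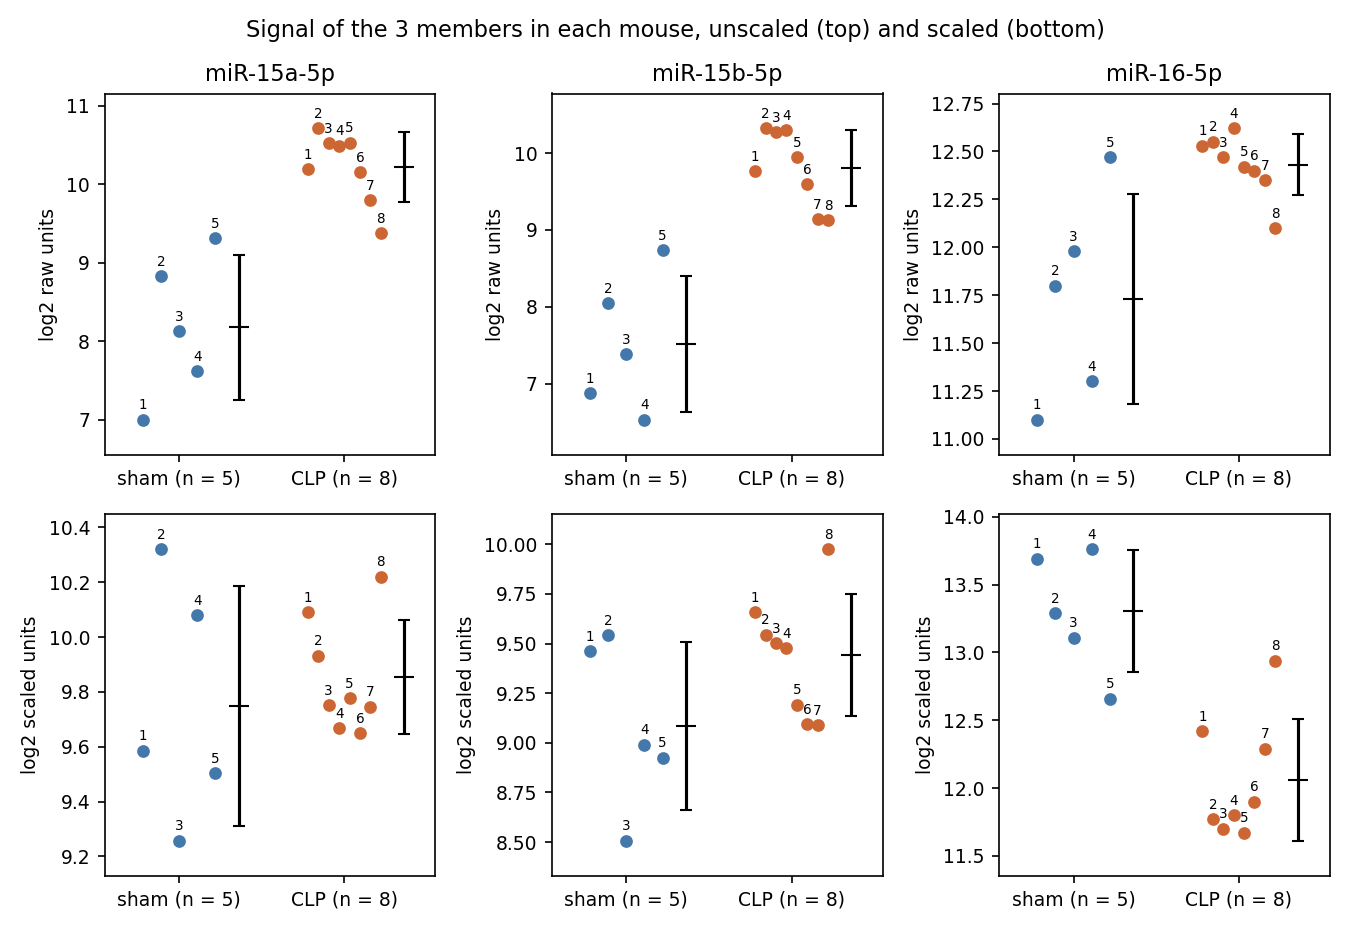
Log2 signal of miR-15a-5p, miR-15b-5p and miR-16-5p in each mouse, as raw units (top row) and after scaling to the geometric mean of the panel (bottom row); points are mice with their numbers, and the black bars are the mean and SD of 5 sham and 8 CLP mice. The y axes differ between panels and do not start at 0. In raw units the groups do not overlap for miR-15a-5p and miR-15b-5p but do for miR-16-5p, and after scaling 7 of 8 CLP mice lie below all sham mice for miR-16-5p alone.

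The third comparison asked whether the members changed in proportion to each other. A factor that multiplies every probe of a sample alike cancels in a ratio of 2 members within a mouse, so no scaling was applied. What does not cancel is a signal that follows the level of the mouse more steeply for one member than for the other, which is described further on. The level of such a ratio depends on both probes, and only its differences between mice are read here. In CLP mice both miR-15a-5p and miR-15b-5p were higher relative to miR-16-5p, while the ratio between miR-15a-5p and miR-15b-5p did not pass.

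The signal of miR-15b-5p was 5.34%, 7.41%, 4.12%, 3.66% and 7.53% of that of miR-16-5p in sham mice 1 to 5. The corresponding shares in CLP mice 1 to 8 were 14.8%, 21.4%, 21.8%, 20.01%, 18.0%, 14.3%, 10.8% and 12.8%. Every CLP mouse lay above every sham mouse, and the lowest of them was mouse 7. The sham mean was 5.61% ± 1.80 (SD, n = 5) and the CLP mean 16.7% ± 4.13 (SD, n = 8), and the ratio rose 3.03-fold (log2 1.60, SE 0.28). The limma adjusted p over the ratios of all 65 other miRNAs to miR-16-5p was 0.000209, and the exact two-sided permutation p was 0.000777, the smallest that the 1287 splits of the mice can give.

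The signal of miR-15a-5p was 5.82%, 12.7%, 6.94%, 7.82% and 11.2% of that of miR-16-5p in sham mice 1 to 5. In CLP mice 1 to 8 it was 19.9%, 27.9%, 25.9%, 22.8%, 27.0%, 21.1%, 17.1% and 15.2%. No CLP mouse overlapped with a sham mouse here either. The sham mean was 8.91% ± 2.95 (SD, n = 5) and the CLP mean 22.1% ± 4.66 (SD, n = 8), and the ratio rose 2.54-fold (log2 1.34, SE 0.27, limma adjusted p = 0.000463). Its exact two-sided permutation p was 0.000777 too.

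miR-15a-5p over miR-15b-5p, the ratio of the products of the separate loci, was 109%, 172%, 168%, 213% and 149% in sham mice 1 to 5. In CLP mice 1 to 8 it was 135%, 131%, 119%, 114%, 150%, 147%, 158% and 119%. The groups overlapped, with sham mouse 1 the lowest and sham mouse 4 the highest of all mice. The difference was -0.25 log2 units (SE 0.22, 95% interval -0.71 to 0.20, limma adjusted p = 0.401, exact two-sided permutation p = 0.11). The ratio was below the sham mean in 8 of 8 CLP mice. Relative to miR-15b-5p the median difference of all 65 other miRNAs was -0.45, so a lower ratio does not by itself set miR-15a-5p apart. These were the 3 pairs of members compared.

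As a share of the summed signal of the 3 members, miR-16-5p made up 87.4% ± 3.41 (SD, n = 5) in sham and 72.3% ± 4.48 (SD, n = 8) in CLP. miR-15a-5p went from 7.71% ± 2.25 (SD, n = 5) to 15.8% ± 2.45 (SD, n = 8) and miR-15b-5p from 4.86% ± 1.39 (SD, n = 5) to 11.9% ± 2.29 (SD, n = 8). For each member the shares of the groups did not overlap. These shares restate the ratios and weigh the probes by their brightness.

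**Figure D2:**
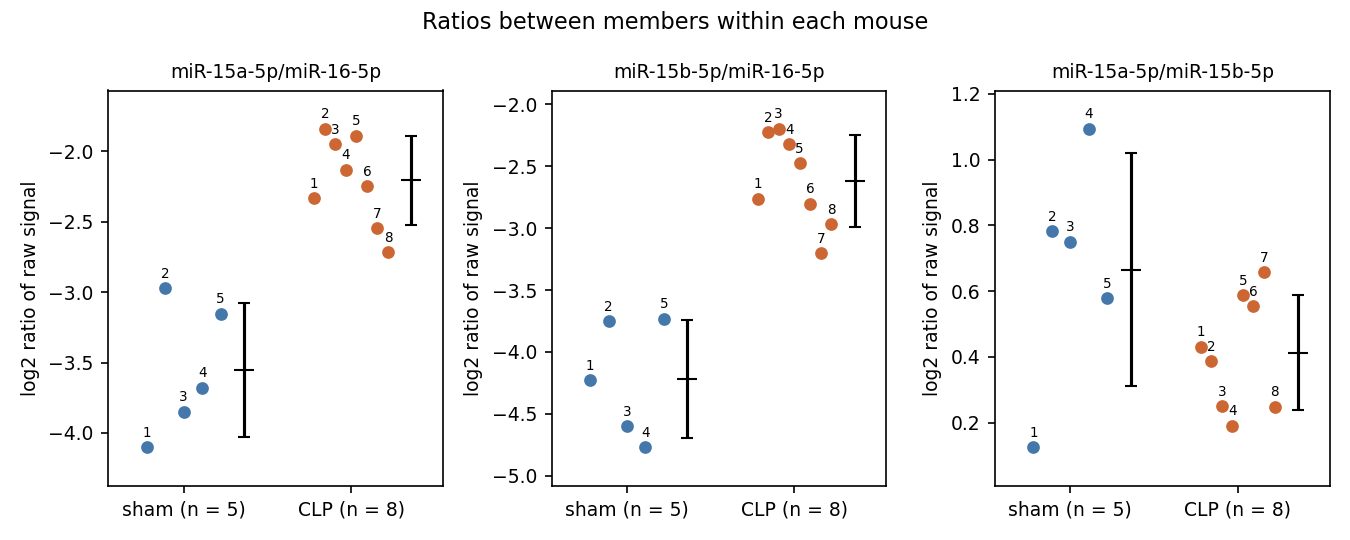
Log2 ratio of raw signal between members within each mouse, for miR-15a-5p over miR-16-5p, miR-15b-5p over miR-16-5p and miR-15a-5p over miR-15b-5p; points are mice with their numbers, and the black bars are the mean and SD of 5 sham and 8 CLP mice. The y axes differ. In both ratios to miR-16-5p all 8 CLP mice lie above all 5 sham mice, and in the third the groups overlap.

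The ratios to miR-16-5p must be read against the rest of the panel, because most of it shifted in the same way. Relative to miR-16-5p, 69.2% of the other 65 miRNAs rose (45), 0 fell by limma or by the exact permutation test, and 62 had a positive difference. The median difference was 1.20, against 1.34 for miR-15a-5p and 1.60 for miR-15b-5p, and 21.5% of the miRNAs had groups that did not overlap. A total of 49 of the 65 had an unadjusted p under 0.05, and the 3 with a negative difference, named after their values were seen, were miR-205-5p (-0.37), the erythroid miR-451a (-0.26) and miR-744-5p (-0.0094). The members' rise relative to miR-16-5p thus went together with that of most of the panel.

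With miR-15b-5p as the reference the picture turned: 3.08% of the 65 others rose and 26.2% fell. The 2 that rose, named after their values were seen, were miR-10a-5p, encoded in a Hox cluster (1.63), and the epithelial miR-200a-3p (1.42), and miR-16-5p was among the 17 that fell (-1.60, SE 0.26, limma adjusted p = 0.000351). With miR-15a-5p as the reference 4.62% rose and 18.5% fell, with miR-16-5p again among the lower ones (-1.34, SE 0.24, limma adjusted p = 0.000792). The median difference was -0.45 relative to miR-15b-5p and -0.19 relative to miR-15a-5p. Changing the reference adds the same amount to every miRNA, so these fits are not separate checks of the panel; they show how far the choice among miRNAs of 1 seed moves the count.

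**Figure D3:**
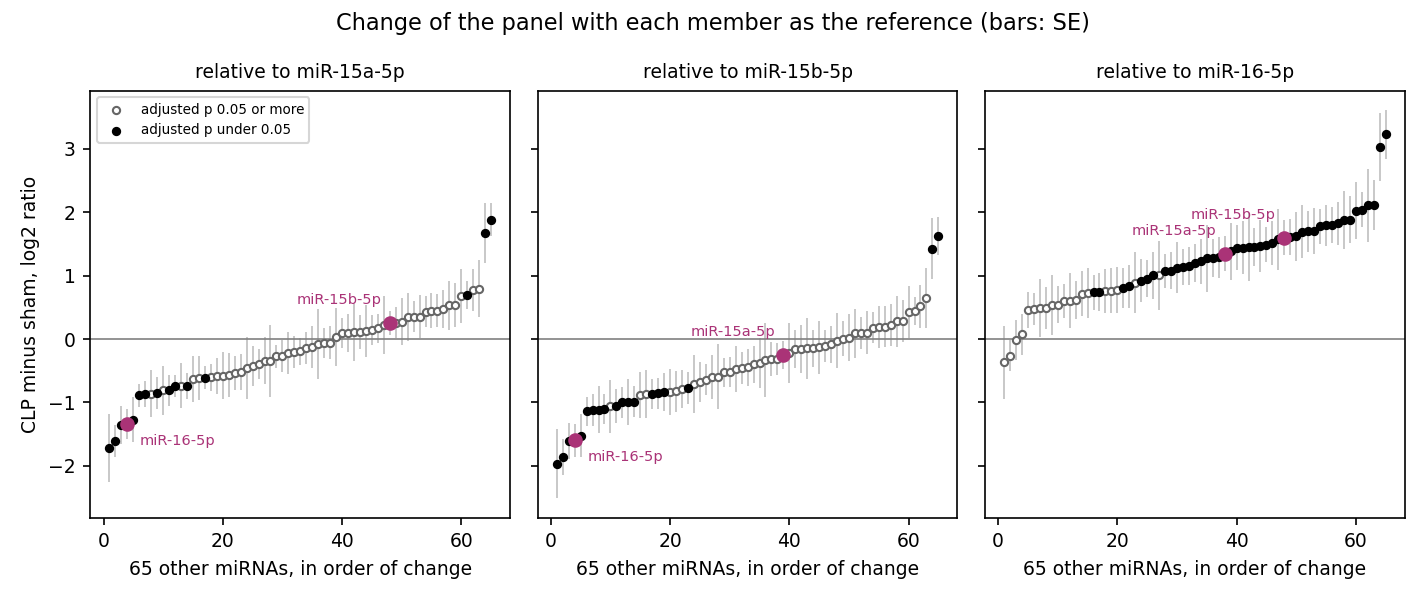
Difference of log2 ratio, CLP minus sham, for the 65 other miRNAs with miR-15a-5p, miR-15b-5p or miR-16-5p as the reference, in order of size within each panel; bars are the SE, filled points passed limma at an adjusted p under 0.05, and the members are marked in purple whether they passed or not. Relative to miR-16-5p 45 miRNAs were called higher and none lower, and relative to miR-15b-5p 2 were called higher and 17 lower.

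Among the miRNAs of red cells on the panel, miR-451a (-0.26, SE 0.25, limma adjusted p = 0.321) and miR-486-5p (0.48, SE 0.25, limma adjusted p = 0.089) did not pass relative to miR-16-5p in limma, whereas miR-92a-3p rose relative to it (0.95, SE 0.29). miR-486-5p passed in the exact permutation test (adjusted p = 0.0245; 0.0245 to 0.582 over its alternatives) and without CLP mouse 8 (0.55, limma adjusted p = 0.03), and miR-92a-3p did not pass without sham mice 1 and 4 (0.67, limma adjusted p = 0.106; 0.003 to 0.903 over its alternatives). Thus 1 of 3 measured erythroid miRNAs rose relative to miR-16-5p in limma, against 69.2% of all 65, and their median difference was 0.48. Relative to miR-15b-5p, 2 of the same 3 fell, against 26.2% of all 65, with differences of -1.86 for miR-451a and -1.12 for miR-486-5p against -0.64 for miR-92a-3p. Of 6 measured miRNAs in common use as plasma references, let-7i-5p (1.07), miR-320a (1.20) and miR-23a-3p (0.74) rose relative to miR-16-5p, that is 3 of 6 against 69.2% of all 65. The other ones were miR-24-3p (0.76), miR-93-5p (0.61) and let-7g-5p (0.60), which did not pass in limma. The call of miR-23a-3p ended without sham mouse 1 (0.59, limma adjusted p = 0.107), without sham mouse 4 (0.58, limma adjusted p = 0.117), without both (0.32, limma adjusted p = 0.384) and without any 1 of CLP mice 2 to 6, within a range of 0.0121 to 0.476 over its alternatives. let-7g-5p passed in the exact permutation test (adjusted p = 0.0279; 0.0196 to 0.903 over its alternatives). With the replicate block miR-24-3p, miR-93-5p and let-7g-5p all passed (limma adjusted p = 0.0114, 0.0144 and 0.0399), and each of them also passed without CLP mouse 8 or without sham mouse 5.

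The miRNAs closest in pattern were not the same for each member. Likeness was measured as the SD over all 13 mice of the log2 ratio of raw signal, among the 59 other miRNAs above 0 in every mouse. It is a description, and it includes the group difference. For miR-16-5p the nearest miRNAs were miR-451a (SD 0.31), miR-486-5p (0.37) and miR-17-5p (0.47), and the median over all 59 was 0.88. For miR-15b-5p the nearest was miR-15a-5p (SD 0.28), followed by the lymphocyte miRNA miR-150-5p (0.35) and the platelet and endothelial miR-126-3p (0.35), with a median of 0.64. For miR-15a-5p the order was let-7i-5p (SD 0.26), miR-15b-5p (0.28) and let-7b-5p (0.32), with a median of 0.57. The SD pooled within groups, which leaves the group difference out, changed the order in part and was looked at after the values were seen. By it miR-486-5p (0.29) and miR-451a (0.29) were still the nearest to miR-16-5p, and miR-15a-5p (0.26) was still the nearest to miR-15b-5p. The nearest to miR-15a-5p became let-7g-5p (0.18), miR-17-5p (0.19) and miR-20a-5p (0.22), with miR-15b-5p at 0.26. Between miR-15a-5p and miR-16-5p the SD was 0.77 over all mice and 0.38 within groups, and between miR-15b-5p and miR-16-5p it was 0.90 and 0.41.

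The members also differed in how steeply their signal followed the level of a mouse. In a linear model with group and level over 13 mice, each log2 unit of level went with 0.42 log2 units of miR-16-5p (SE 0.057). This model, like the fits with the level as a covariate, gave both groups a common slope. Separate slopes for sham and CLP mice were not fitted, so whether they differ was not tested. The corresponding slope was 0.78 (SE 0.11) for miR-15a-5p and 0.76 (SE 0.13) for miR-15b-5p. The median slope of 40 other miRNAs with at least 10 raw units in every mouse was 0.85, ranging from 0.28 to 1.57. Only 1 of the 40, miR-451a, had a lower slope than miR-16-5p, while 16 had a lower slope than miR-15a-5p and 11 a lower one than miR-15b-5p. miR-16-5p and miR-451a had the highest mean raw signals of these probes, and the next brightest, miR-486-5p and miR-223-3p, had slopes of 0.77 and 0.86. The part of probe brightness in these slopes was not tested.

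Taken in the CLP group alone, the ratios to miR-16-5p moved with the level. The same 8 mice and the same level entered the slopes above, so these correlations are not a separate observation. Over the 8 CLP mice, the log2 ratio of miR-15a-5p to miR-16-5p correlated with the level at r = 0.91 (exact permutation p = 0.00194, Benjamini-Hochberg adjusted 0.0058 over the 3 ratios) and rho = 0.83 (exact permutation p = 0.0154, adjusted 0.0231). Without CLP mice 7 and 8, the farthest from the median level, r was 0.79 over 6 mice (exact permutation p = 0.0583). For miR-15b-5p over miR-16-5p, r was 0.75 (exact permutation p = 0.034, adjusted 0.051) and rho 0.86 (exact permutation p = 0.0107, adjusted 0.0231), and r was 0.80 without these mice (exact permutation p = 0.106). For miR-15b-5p over miR-16-5p, the adjusted p of r thus missed 0.05 already with all 8 CLP mice. Without CLP mice 7 and 8 the p of r missed it for both ratios to miR-16-5p, although r remained at a similar size. The rho values were not computed without these mice. For miR-15a-5p over miR-15b-5p, r was 0.047 (exact permutation p = 0.937, adjusted 0.937) and rho -0.38 (exact permutation p = 0.36, adjusted 0.36), and r was -0.33 without CLP mice 7 and 8 (exact permutation p = 0.547). Correlations were taken only in groups of at least 6 mice, so none is given for the sham group. The level is part of what differs between the groups, and only sham mouse 5 and CLP mouse 8 overlapped in it.

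With the level as a covariate, the rise of miR-15b-5p relative to miR-16-5p was 0.94 (SE 0.33, limma adjusted p = 0.0741; 4.42e-05 to 0.941 over its alternatives) and that of miR-15a-5p was 0.65 (SE 0.30, limma adjusted p = 0.202; 0.00013 to 0.964 over its alternatives). Neither passed, and 5 of the 65 miRNAs rose and 3 fell relative to miR-16-5p in that fit.

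**Figure D4:**
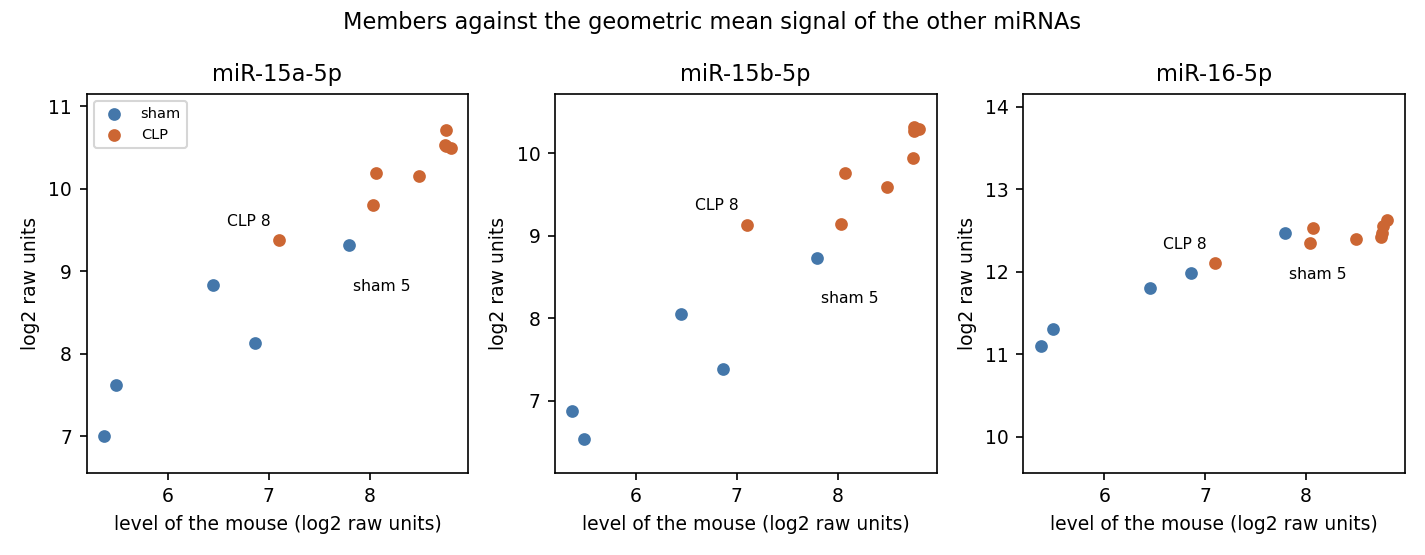
Log2 raw signal of each member (y axis, the same span of log2 units in each panel) against the level of the mouse, the log2 geometric mean raw signal of the other miRNAs (x axis), with 1 point per mouse, 5 sham in blue and 8 CLP in orange. The slope, taken as common to both groups, was 0.42 for miR-16-5p and 0.78 and 0.76 for miR-15a-5p and miR-15b-5p. CLP mouse 8 had a lower level than sham mouse 5.

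The panel also held miR-16-2-3p, in the mouse the opposite arm of Mir16-2 in the Smc4 locus, which was named after the values were seen. Whether its probe, which carries a human miRNA name, reads this mouse arm alone was not tested. The mouse sequence is shown to set the seed of miR-16-2-3p apart from that of the members.
miR-16-2-3p: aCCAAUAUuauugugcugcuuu
This arm lies at chr3:69009960-69009981, has another seed and was near the low end of the panel, at 2.62, 4.48, 8.26, 1.95 and 9.88 raw units in sham mice 1 to 5. In CLP mice 1 to 8 it was at 14.03, 17.97, 20.13, 30.23, 13.03, 12.94, 13.74 and 4.27 units. All CLP mice other than mouse 8 lay above every sham mouse, and sham mouse 4 was below the floor of 2.10 units, to which it was set in the tests. Relative to miR-16-5p, the other arm of the same hairpin, it rose by 0.92 (SE 0.34, limma adjusted p = 0.0253), less than the panel's median of 1.20. That call ended without sham mouse 1 (0.88, limma adjusted p = 0.0567) and without sham mouse 4, the mouse set to the floor (0.75, limma adjusted p = 0.0812). Without both the difference was 0.63 (limma adjusted p = 0.202), and with 10 units added to every value it was 0.021, within a range of 0.00166 to 0.943 over its alternatives. Relative to miR-15b-5p, the neighbour in the same locus, it was at -0.68 (SE 0.31, limma adjusted p = 0.0989) and did not pass.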

How the data were processed

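Intensity was measured by hybridizing miRNAs to FirePlex hydrogel particles, adapter ligation and RT-PCR with a biotinylated primer, per the labels' protocols. The authors deposited raw intensity on a linear scale, with 1 empty cell, and a second table holding the raw intensity multiplied, within a sample, by a constant between 0.450 and 4.31. The sources used here name neither the basis of that constant nor the scanner or the background correction. In the scaled table the columns of CLP mice 6 and 7 match the raw columns of mice 7 and 6, which leaves groups unaffected; single values follow the raw table.

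Raw values were tested unscaled, as ratios to each member, and after dividing a sample by its geometric mean over the 60 miRNAs that no sample lists at 0. Values were floored at the 5th percentile of positive values (2.10 raw, 3.09 scaled units) and taken to log2, and a miRNA entered a fit if 5 or more samples exceeded the floor (66 unscaled, 65 scaled). Models were fitted with lmFit and eBayes of limma 3.58.1 (R 4.3.3, two-sided), with Benjamini-Hochberg adjustment over all miRNAs of a fit. Exact permutations, correlations and figures used Python 3.11.15, scipy 1.17.1 and matplotlib 3.10.9. Intervals are at 95%. The fits were tested on simulated data.

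The members, lists, naming rule and alternatives were chosen with earlier results of these data known. Named miRNAs were the members, the 3 nearest to each by SD of log2 ratio, and the measured members of 2 lists, erythroid (miR-451a, miR-486-5p, miR-92a-3p) and plasma references. Other miRNAs were named after their values were seen. Replicate numbers are shared by 5 mice of each group, but nothing in the labels pairs them. The labels say no more of how mice were kept or bled, so p-values reflect the spread among these samples alone, which may be technical. The labels used here give no batch.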

Additional observations from a re-analysis of the deposited data

Results flagged for a closer look

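Of 26 groups of values examined for the members, their ratios and miR-16-2-3p, 2 held a mouse far from the others of its group, and chance gives about 1 in 20. Both were CLP mouse 8 and both concern miR-16-2-3p, so they share 1 mouse and 1 probe and are not separate. Its log2 raw signal was 2.09 there, against 3.69 in the nearest CLP mouse. Its log2 ratio to miR-16-5p was -10.001, against -8.72 in the nearest. No value of a member, and no ratio between members, stood apart in this way in either group.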

How the results depend on the processing

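Of the alternatives run on the scaled fit, the fall of miR-16-5p kept its direction and call in all but quantile normalization (0.14). The level covariate was not used in the scaled fit, so the scaled fall was not tested in that way. Both ratios to miR-16-5p kept their direction and call in all but quantile normalization and the level covariate. With quantile normalization before the ratio, miR-15a-5p over miR-16-5p was 0.0074, miR-15b-5p over miR-16-5p -0.037 and miR-15a-5p over miR-15b-5p 0.045; that step holds the brightest probe nearly constant.

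With the level as a covariate the unscaled values were 0.52, 0.81 and -0.13 for miR-15a-5p, miR-15b-5p and miR-16-5p, and the ratios to miR-16-5p 0.65 and 0.94. The counts higher and lower were then 5 and 3 relative to miR-16-5p, 0 and 3 relative to miR-15a-5p and 0 and 9 relative to miR-15b-5p. The cause was not tested. Ratios of other miRNAs to miR-16-5p also changed sign in that fit, to 0.0081 for miR-451a, -0.20 for miR-486-5p, -0.18 for miR-17-5p, -0.063 for miR-92a-3p, -0.45 for miR-93-5p, -0.38 for miR-23a-3p, -0.73 for miR-24-3p, -0.072 for let-7g-5p and -0.28 for miR-16-2-3p. Quantile normalization gave -0.10 for let-7i-5p, -0.31 for miR-486-5p, -0.82 for miR-17-5p, -0.19 for miR-92a-3p, -0.59 for miR-93-5p, -0.51 for miR-23a-3p, -0.50 for miR-24-3p, -0.54 for let-7g-5p, -0.23 for miR-320a and -0.70 for miR-16-2-3p.

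Scaled miR-15b-5p passed with the 75th percentile and the authors' values (0.57 each), and unscaled miR-16-5p, at 0.70, passed with no filter and by exact permutation. Without 1 mouse, scaled miR-15a-5p ran from -0.020 (without sham mouse 3) to 0.25, unscaled miR-16-5p from 0.54 to 0.88, and the slope of miR-16-5p from 0.36 to 0.48. Relative to miR-15a-5p, 1 to 4 miRNAs rose (1 without sham mouse 1) and 7 to 15 fell (7 without sham mouse 1 or 3), and relative to miR-15b-5p 1 to 2 rose. Without sham mice 1 and 4, the weakest, 1 miRNA rose relative to each of these 2, and the ratios to miR-16-5p were 1.12 and 1.41. The replicate block, in a design whose numbers pair nothing by the labels (correlations of deviations from -0.343 to 0.29), left scaled miR-16-5p at -1.43 and the ratios at 1.52 and 1.82, and 3 miRNAs fell relative to miR-15a-5p; it changed no call of a member.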
